A study of Mus musculus with 4 samples.

Results

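Egress and residency genes set whether a T cell leaves a tissue or stays in it, and 9 of them were followed here through the T cells of B16 melanoma. The rows of Klf2, S1pr1, S1pr5, Gpr183, Cd69, Itgae, Itga1, Itga4 and Itgb7 were taken by symbol from the 32285 genes of 2 single-cell count tables, and all 9 were found once in each. Levels were read in 3 classes of cells that are defined by their own UMIs (unique molecular identifiers, the counted molecules). CD8 cells held Cd8a or Cd8b1 but lacked Cd4, and Foxp3 was not part of their rule. Conventional CD4 cells had a Cd4 UMI and no Foxp3 UMI, and regulatory cells had UMIs of both Cd4 and Foxp3.

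Both libraries came from C57BL/6 mice, 6 to 8 weeks old, that carried B16bl6 melanoma, a transplantable mouse tumor line. WT mice were Vsir fl/fl littermates, in which the gene of the checkpoint protein VISTA is flanked by loxP sites and intact. VISTA-KO mice were Vsir fl/fl with CD4-Cre, whose promoter is active in developing thymocytes, so that the gene is lost in CD8+ and CD4+ T cells alike and is kept in other cells of the tumor. All mice had received a peptide vaccine of CpG, R848 and a mutated TRP2 peptide on day 3 and anti-CTLA-4 antibody on days 4 and 8, and the tumors were taken on day 18 after treatment. Tumors of 5 to 6 mice by the methods, or 6 to 8 tumors by a legend, were pooled for each genotype, and CD4+ and CD8+ tumor-infiltrating lymphocytes were enriched, sorted and loaded as 1 library. With 1 library per genotype there was no replicate, so that no difference between genotypes was tested and all intervals are exact 95% intervals that cover counting error only.

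After the cell filter, 10224 WT cells and 9946 VISTA-KO cells were kept, with median depths of 4723 and 4670.5 UMIs. The WT library held 5549 CD8, 1768 conventional CD4 and 1528 regulatory cells, and the VISTA-KO library held 4350, 3048 and 1270. Cd3e was between 1321 and 1583 CPM (UMIs per 1000000 UMIs of the class) in the 3 classes of both libraries, and Foxp3, Il2ra, Ctla4 and Ikzf2 summed in regulatory cells to 1831 CPM (WT) and 2425 CPM (VISTA-KO). The libraries shared 145 cell barcodes. The study used mice of both sexes, but the Y-linked gene Ddx3y was at 0 CPM over all kept cells of both libraries, with Xist at 295 and 319 CPM. Vsir read 112 and 113 CPM over all kept cells and between 109 and 117 CPM in every class of both libraries. Counts per gene do not show which exons a UMI came from and the deleted exons are not given in the sources used here, so Vsir did not check the labels, and WT and VISTA-KO are used below as the labels give them.

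Lymphocytes leave tissue along a gradient of sphingosine 1-phosphate (S1P), which is low in tissue and high in blood and lymph. The transcription factor KLF2 drives S1pr1, the S1P receptor that most T cells use for exit, while S1PR5 serves effector lymphocytes and natural killer cells. CD69 binds S1PR1 and takes it off the cell surface, and resident memory T cells keep KLF2 and S1PR1 low and display CD69, the integrin αE (CD103, Itgae), which with β7 (Itgb7) binds E-cadherin, and the integrin α1 (CD49a, Itga1), which binds collagen. The integrin α4 (Itga4) pairs with β7 or β1 for entry into tissue from blood, and GPR183 guides cells toward oxysterols.

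The genes lie apart in the genome. On GRCm38.p6, Klf2 (ENSMUSG00000055148) spans bases 72319062 to 72321654 of chromosome 8, S1pr1 (ENSMUSG00000045092) bases 115710433 to 115715055 of chromosome 3, and S1pr5 (ENSMUSG00000045087) bases 21242917 to 21248443 of chromosome 9. Cd69 (ENSMUSG00000030156) spans bases 129267324 to 129275375 of chromosome 6, Itgae (ENSMUSG00000005947) bases 73090505 to 73147449 of chromosome 11, and Itga1 (ENSMUSG00000042284) bases 114958079 to 115101964 of chromosome 13. Itga4 (ENSMUSG00000027009) spans bases 79255426 to 79333114 of chromosome 2, Itgb7 (ENSMUSG00000001281) bases 102215994 to 102233405 of chromosome 15, and Gpr183 (ENSMUSG00000051212) bases 121952331 to 121965193 of chromosome 14.

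KLF2 belongs to the Krüppel-like factors, which bind CACCC boxes, and the promoters of Klf2, S1pr5 and Itga1 are shown because Klf2 was found together with S1pr5 more often, and with Itga1 less often, than independent detection gives in CD8 cells of both libraries (below). Each is the 250 bases before the start that RefSeq gives on GRCm38.p6, 5′ to 3′ on the strand of the gene, and capitals mark CACCC or its reverse complement GGGTG.
Klf2, chr8:72318812-72319061, plus strand: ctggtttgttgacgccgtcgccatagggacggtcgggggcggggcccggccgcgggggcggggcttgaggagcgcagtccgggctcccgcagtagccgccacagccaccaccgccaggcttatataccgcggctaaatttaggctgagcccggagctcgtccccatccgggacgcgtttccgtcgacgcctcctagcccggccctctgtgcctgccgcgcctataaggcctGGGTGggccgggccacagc
S1pr5, chr9:21248444-21248693, minus strand: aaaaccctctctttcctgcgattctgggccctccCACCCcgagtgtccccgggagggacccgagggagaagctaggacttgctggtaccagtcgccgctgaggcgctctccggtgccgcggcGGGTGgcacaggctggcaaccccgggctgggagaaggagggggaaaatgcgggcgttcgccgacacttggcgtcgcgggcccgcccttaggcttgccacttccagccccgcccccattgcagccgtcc
Itga1, chr13:115101965-115102214, minus strand: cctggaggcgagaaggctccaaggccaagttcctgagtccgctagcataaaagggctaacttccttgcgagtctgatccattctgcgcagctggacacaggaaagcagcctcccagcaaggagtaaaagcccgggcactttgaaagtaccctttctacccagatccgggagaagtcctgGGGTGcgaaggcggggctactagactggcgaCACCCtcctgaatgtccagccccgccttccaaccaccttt
The Klf2 promoter held 1 match, which began 19 bases before the start, S1pr5 held matches at 216 and 128 bases, and Itga1 held matches at 71 and 40 bases. Itga4 and Itgb7 held 4 matches each and Gpr183 held 0. The Itgb7 stretch, bases 102231936 to 102232185 of chromosome 15, lies inside the span given above for the gene and not before it. In all, 5 of the 6 members with an entry held a match, against 17087 of 32851 promoters of the same length, or 52.0%, so these letters are common. S1pr1, Cd69 and Itgae have no entry in the table.

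Klf2 and S1pr1 were highest in conventional CD4 cells and the αE and β7 integrin genes in regulatory cells, in both libraries. Klf2 stood at 392 (WT) and 566 (VISTA-KO) CPM in CD8 cells, at 634 and 1121 CPM in conventional CD4 cells, and at 309 and 703 CPM in regulatory cells. S1pr1 was at 45.4 and 61.5 CPM in CD8 cells, 78.6 and 149 CPM in conventional CD4 cells, and 43.7 and 82.0 CPM in regulatory cells. Both genes were higher in conventional CD4 than in CD8 cells, Klf2 by 1.62-fold in WT (interval 1.57 to 1.67) and by 1.98-fold in VISTA-KO (1.94 to 2.02), and S1pr1 by 1.73-fold (1.59 to 1.88) and 2.41-fold (2.27 to 2.57). The order of the other 2 classes was not the same in both libraries, since Klf2 in regulatory cells was 0.788-fold of its level in CD8 cells in WT and 1.24-fold in VISTA-KO.

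S1pr5 had another order, with its highest level in CD8 cells. It was at 14.8 and 8.45 CPM in CD8 cells, 6.32 and 3.87 CPM in conventional CD4 cells, and 4.81 and 2.70 CPM in regulatory cells of WT and VISTA-KO. All 88 S1pr5 UMIs of the WT regulatory cells lay in cells that also held a Cd8a or Cd8b1 UMI. The 734 WT regulatory cells without one held 0 S1pr5 UMIs, and the 895 such VISTA-KO cells held 6. Whether those UMIs came from CD8 cells in the same droplet was not tested.

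Itgae separated regulatory cells from the other classes. It read 91.4 and 149 CPM in regulatory cells of WT and VISTA-KO, against 21.2 and 31.9 CPM in CD8 cells and 24.3 and 25.1 CPM in conventional CD4 cells. The ratio of regulatory over CD8 cells was 4.32 for WT (interval 3.97 to 4.70) and 4.67 for VISTA-KO (4.30 to 5.08), and that of regulatory over conventional CD4 cells was 3.75 (3.29 to 4.29) and 5.94 (5.32 to 6.65). Its β7 partner Itgb7 was at 525 and 755 CPM in regulatory cells, 243 and 268 CPM in CD8 cells, and 364 and 482 CPM in conventional CD4 cells. Itgb7 thus stood 2.16-fold (2.10 to 2.23) and 2.81-fold (2.73 to 2.91) higher in regulatory than in CD8 cells, with conventional CD4 cells between them in both libraries.

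The remaining members leaned toward CD8 or conventional CD4 cells. Itga1 was at 28.7 and 26.5 CPM in CD8 cells of WT and VISTA-KO, 15.8 and 18.6 CPM in conventional CD4 cells, and 15.2 and 10.1 CPM in regulatory cells, and the 2 CD4 classes overlapped within their intervals in WT. Itga4 was at 295 and 214 CPM in CD8 cells, 240 and 236 CPM in conventional CD4 cells, and 155 and 141 CPM in regulatory cells. Regulatory cells held the least Itga4 in both libraries, and the order of the other classes turned. Gpr183 was at 148 and 150 CPM in CD8 cells, 136 and 235 CPM in conventional CD4 cells, and 98.7 and 109 CPM in regulatory cells. Cd69, the early activation antigen, was at 412 and 463 CPM in CD8 cells, 518 and 659 CPM in conventional CD4 cells, and 347 and 509 CPM in regulatory cells.

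**Figure D1:**
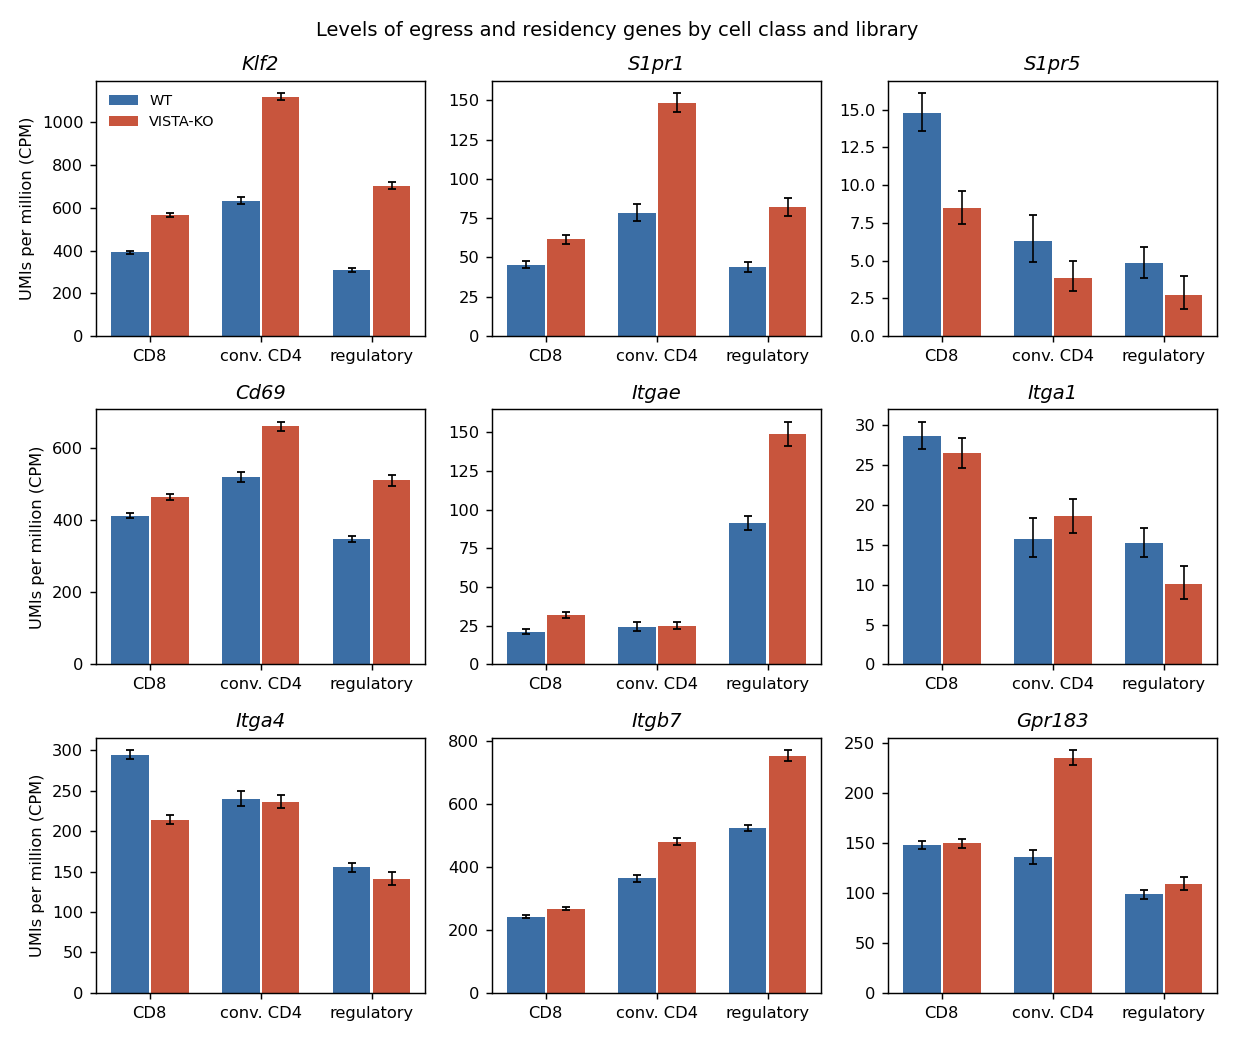
Level of each gene in CPM (UMIs per 1000000 of the class), in CD8, conventional CD4 and regulatory cells of the WT and the VISTA-KO library. Bars start at 0 and error bars are exact 95% Poisson intervals for counting error, with 1 library per bar. Itgae and Itgb7 stand highest in regulatory cells, Klf2 and S1pr1 in conventional CD4 cells and S1pr5 in CD8 cells of both libraries.

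Measured as a difference of 2-fold or more on the log2(CPM + 5) scale in the same direction in both libraries, 2 members, Itgae and Itgb7, differed between regulatory and CD8 cells, where 3.03% of all genes tested did. Itgae also differed between regulatory and conventional CD4 cells, against 1.99% of all genes. No member did so between conventional CD4 and CD8 cells, where the share of all genes was 1.19%. Without the CD4-class cells that held a Cd8a or Cd8b1 UMI, 7 such differences were counted in place of 3. No share over all genes was computed for that setting, so the larger count is not read as a result about these members. The additional ones were lower Itga1 in regulatory than in CD8 cells, higher S1pr1 in conventional CD4 than in CD8 cells, and lower S1pr1 and Gpr183 in regulatory than in conventional CD4 cells.

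Detection in single cells was compared after each cell was thinned to 2000 UMIs, since depth differed between the classes. Regulatory cells had medians of 8838.5 UMIs in WT and 5939 in VISTA-KO, against 4848 and 5224.5 in CD8 cells. Those regulatory cells with no Cd8a or Cd8b1 UMI had medians of 5233.5 and 5151, nearer to CD8 cells. Thinning does not take out UMIs of a second cell in the droplet. A Klf2 UMI was then found in 32.0% of WT and 37.9% of VISTA-KO CD8 cells, 47.5% and 56.5% of conventional CD4 cells, and 29.9% and 46.1% of regulatory cells. Cd69 was found in 49.8% and 53.2%, 55.5% and 59.8%, and 45.7% and 55.0% of the same classes. The integrin gene Itgae was found in 16.4% and 22.3% of regulatory cells, but in 2.89% and 4.83% of CD8 cells and 3.49% and 3.70% of conventional CD4 cells. Before thinning, the shares with an Itgae UMI were 39.1% and 40.1% of regulatory cells and 6.65% and 9.24% of CD8 cells.

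Plasmacytoid dendritic cells, which were marked by 3 or more Siglech UMIs and no Cd3 UMI, served as a lower bound of the background for the T cell genes. Their 126 WT and 96 VISTA-KO cells had median depths of 8305.5 and 8690 UMIs. After thinning, S1pr1, S1pr5, Itgae and Itga1 were found in 0 of 126 and 0 of 95 of them, which allows shares of up to 2.38% and 3.16% at 3 counts of the total, or 2.89% and 3.81% as exact upper limits. The S1pr1 shares of all 3 T cell classes were above both limits. So were the Itgae shares of the regulatory cells of both libraries, of VISTA-KO CD8 cells and of WT conventional CD4 cells. That of WT CD8 cells was above the first limit and practically at the second (2.890% against 2.885%). That of VISTA-KO conventional CD4 cells (3.70%) was above the first limit but not above the second. Itga1 was found in 5.99% and 5.69% of CD8 cells, above both limits, and in 3.67% and 2.87% of conventional CD4 and 2.56% and 1.64% of regulatory cells, so that its VISTA-KO shares in the CD4 classes lay below both. S1pr5 was found in 3.75% of WT CD8 cells, above both limits, and in 1.80% of VISTA-KO CD8 cells and under 1% of both CD4 classes, below them.

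The number of plasmacytoid cells set these limits, and the levels over all UMIs, without thinning, gave narrower ones. In the plasmacytoid cells S1pr1 and Itga1 held 0 UMIs in both libraries, Itgae 1 UMI in WT and S1pr5 1 UMI in VISTA-KO, with upper limits between 3.56 and 6.50 CPM. The levels of S1pr1, Itgae and Itga1 in every T cell class lay above the limits of their library. S1pr5 lay above the limit of 3.56 CPM in all 3 classes of WT. Without cells that held a Cd8a or Cd8b1 UMI, it was at 3.65 CPM (interval 2.16 to 5.77) in WT conventional CD4 cells. In WT regulatory cells it was then at 0 CPM. At 8.45 CPM (interval 7.41 to 9.59) it also lay above its limit of 6.50 CPM in VISTA-KO CD8 cells, and at 3.87 and 2.70 CPM in the VISTA-KO CD4 classes it did not and was read as no more than background there. These cells did hold Klf2, Cd69, Itga4, Itgb7 and Gpr183, so no background was measured for those genes. Of all kept cells, 219 in WT and 136 in VISTA-KO held 3 or more Siglech UMIs, and only those without a Cd3 UMI were used. That choice left out droplets with a T cell and also those with free T cell RNA. The limits therefore do not cover UMIs from a T cell in the same droplet and can be too low for free RNA. A level above them is not thereby shown to be above free RNA. Of the plasmacytoid cells, 98 in WT and 70 in VISTA-KO held a Cd8a or Cd8b1 UMI. These also met a class rule and were not taken out of the classes, so the background and the classes share cells.

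Between the genotypes, Klf2 was higher in VISTA-KO than in WT cells of all 3 classes. The ratio of the levels was 1.45 (interval 1.41 to 1.48) in CD8 cells, 1.77 (1.72 to 1.82) in conventional CD4 cells and 2.28 (2.20 to 2.36) in regulatory cells. In cells of 3000 to 8000 UMIs, CD8 and conventional CD4 cells had like Klf2 ratios, 1.49 (1.45 to 1.53) and 1.47 (1.42 to 1.53). Regulatory cells had 2.06 (1.93 to 2.21). Over all cells of a class, S1pr1 was higher as well, by 1.36-fold (1.27 to 1.45), 1.89-fold (1.75 to 2.05) and 1.88-fold (1.70 to 2.08). The third egress gene, S1pr5, was lower in all 3 classes, at 0.571-fold (0.488 to 0.665) of its WT level in CD8 cells, 0.612-fold (0.427 to 0.876) in conventional CD4 cells and 0.562-fold (0.348 to 0.879) in regulatory cells. It was under 20 CPM in every class, the least that a gene had to reach in 1 library to be counted below. The S1pr5 ratio in CD8 cells varied by state, as given below. In the CD4-class cells with no Cd8a or Cd8b1 UMI, S1pr5 was no longer lower in VISTA-KO, with 3.65 and 3.80 CPM in conventional CD4 cells.

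Over all cells of a class, Cd69 and Itgae were not lower in VISTA-KO where Klf2 and S1pr1 were higher. In regulatory cells, Cd69 was 1.47-fold (interval 1.41 to 1.52), Itgae 1.63-fold (1.52 to 1.75) and Itgb7 1.44-fold (1.39 to 1.48) as high in VISTA-KO as in WT. The Itgae ratio was 1.51 (1.37 to 1.66) in CD8 cells and 1.03 (0.879 to 1.21) in conventional CD4 cells, where the interval held 1. In the conventional CD4 cells with no Cd8a or Cd8b1 UMI, Itgae was lower in VISTA-KO, at 35.7 and 26.7 CPM, a ratio of 0.748 (0.617 to 0.908), while Klf2 and S1pr1 were each 1.59-fold higher. Cd69 stood 1.12-fold (1.10 to 1.15) higher in CD8 and 1.27-fold (1.23 to 1.31) higher in conventional CD4 cells. In conventional CD4 cells with no Cd8a or Cd8b1 UMI the Cd69 ratio was 1.10 (1.05 to 1.14). In those of 3000 to 8000 UMIs it was 1.05 (1.01 to 1.10). Itga1, the collagen-binding subunit, had ratios of 0.924 (0.840 to 1.01), 1.18 (0.971 to 1.43) and 0.661 (0.519 to 0.836) in CD8, conventional CD4 and regulatory cells.

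Gpr183 and Itga4, genes of positioning and entry, had their largest ratios in different classes. Gpr183 was 1.73-fold (interval 1.63 to 1.84) higher in VISTA-KO conventional CD4 cells, whereas in CD8 cells its ratio was 1.01 (0.972 to 1.05) and in regulatory cells 1.11 (1.03 to 1.20). Itga4 was at 0.726-fold (0.704 to 0.749) of its WT level in VISTA-KO CD8 cells, with ratios of 0.986 (0.937 to 1.04) and 0.909 (0.852 to 0.970) in conventional CD4 and regulatory cells. No interaction between class and genotype could be tested with 1 library per genotype.

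**Figure D2:**
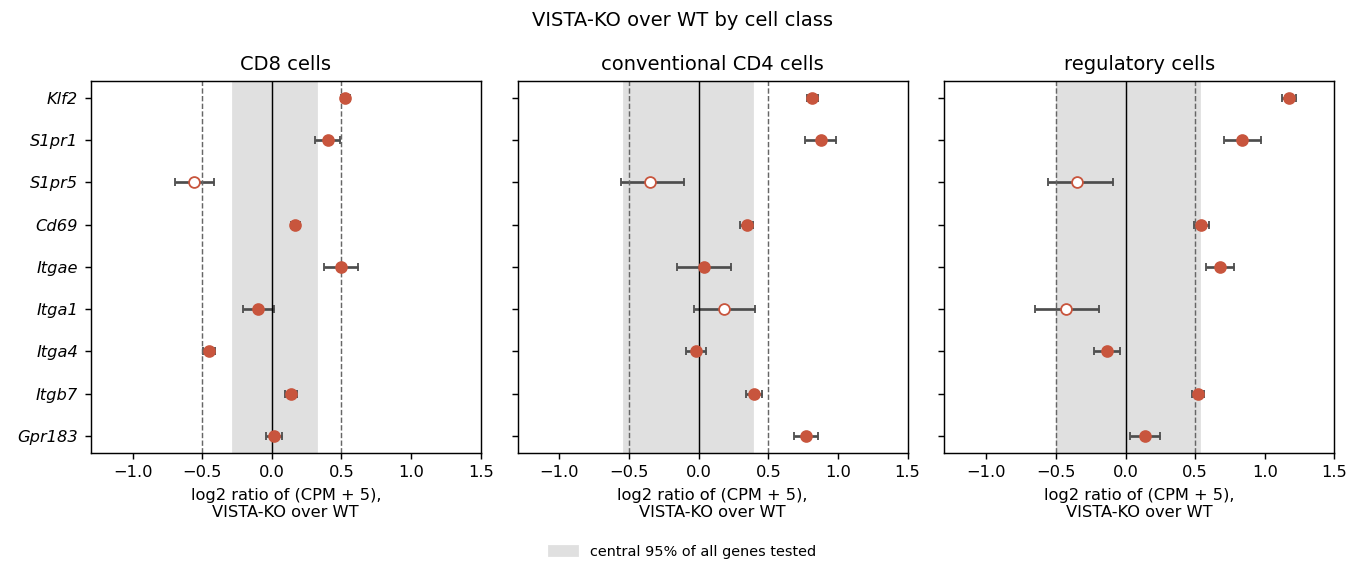
Log2 ratio of VISTA-KO over WT of (CPM + 5) for each gene in the 3 cell classes. Points are 1 library per genotype with 95% counting intervals, open circles mark genes under 20 CPM in both libraries, dashed lines mark ratios of 0.5 and -0.5, and the grey band spans the central 95% of all genes tested, which in CD8 cells runs from -0.28 to 0.33. Klf2 lies beyond 0.5 in every class and S1pr5 lies below 0 in every class.

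On the log2(CPM + 5) scale, a ratio of 0.5 or more in either direction was called past the fold. In CD8 cells 1 member passed, Klf2 at 0.53, where 1.78% of the 6083 genes tested did, and Itgae at 0.496 lay just inside it. In conventional CD4 cells 3 members passed, Klf2 at 0.82, S1pr1 at 0.88 and Gpr183 at 0.77, against 4.25% of 6336 genes. In regulatory cells 5 members passed, Klf2 at 1.17, S1pr1 at 0.84, Itgae at 0.68, Cd69 at 0.55 and Itgb7 at 0.52, against 5.33% of 6281 genes. All of them were higher in VISTA-KO. In CD8 cells of 3000 to 8000 UMIs, Itgae also passed and was higher, while S1pr5 and Itga4 passed and were lower. With mitochondrial, ribosomal and receptor genes left out of the total, Itgb7 in regulatory cells was no longer past the fold. The median log2 ratio of the members tested was 0.15 in CD8, 0.40 in conventional CD4 and 0.55 in regulatory cells, beside -0.02, -0.04 and -0.01 over all genes tested.

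The makeup of the classes differed between the libraries, and its part in these ratios was not tested. Of the CD8 cells, 6.25% in WT and 4.07% in VISTA-KO held a Foxp3 UMI. The part of these cells in the CD8 values of Itgae was not tested by itself. Of the WT conventional CD4 cells, 32.7% held a Cd8a or Cd8b1 UMI, 6.05% held 3 or more Siglech UMIs and 4.64% had no Cd3 UMI, and of the VISTA-KO conventional CD4 cells 20.9%, 2.10% and 1.74%. All 5 plasmacytoid marker genes were detected in that class and summed to 1355 (WT) and 728 (VISTA-KO) CPM, against 472 to 518 CPM in the other classes of either library. With a Cd3 UMI required, the log2 ratios of Klf2, S1pr1 and Gpr183 in conventional CD4 cells were 0.81, 0.84 and 0.77, all past the fold. Of the WT regulatory cells, 52.0% held a Cd8a or Cd8b1 UMI and 17.1% were dividing (2 or more Mki67 UMIs), and of the VISTA-KO regulatory cells 29.5% and 8.58%. In regulatory cells with no Cd8a or Cd8b1 UMI, Klf2 was 2.42-fold (interval 2.28 to 2.57) and S1pr1 1.72-fold (1.47 to 2.02) higher in VISTA-KO, while Itgae was 1.36-fold (1.23 to 1.50) higher and, like Itgb7 at 1.26-fold, no longer past the fold. Itga4 turned, from 155 and 141 CPM in all regulatory cells of WT and VISTA-KO to 73.1 and 128 CPM in these, a ratio of 1.75 (1.54 to 1.98). It was past the fold there, at a log2 ratio of 0.76, where 5.86% of all genes tested passed. In regulatory cells of 3000 to 8000 UMIs, Klf2 and S1pr1 remained past the fold, while Cd69 at 1.39-fold, Itgae at 1.23-fold and Itgb7 at 1.20-fold did not.

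Immediate-early genes, which tissue dissociation can induce, were read as a list of 10. Of those tested, 2 of 8 in CD8, 3 of 9 in conventional CD4 and 6 of 9 in regulatory cells were past the fold, all higher in VISTA-KO. Over all genes tested, 1.08%, 1.5% and 2.83% were past the fold and higher in VISTA-KO in these classes. Junb and Ier2 passed in every class, with Junb ratios of 1.44, 1.93 and 2.33, whereas Jun was lower in VISTA-KO CD8 and conventional CD4 cells, at 0.780-fold (interval 0.758 to 0.802) and 0.795-fold (0.768 to 0.822), and had a ratio of 0.994 (0.952 to 1.04) in regulatory cells. In CD8 cells the 10 genes summed to 4434 (WT) and 5643 (VISTA-KO) CPM, against 6957 and 10583 CPM in conventional CD4 cells, and 5465 and 9455 CPM in regulatory cells. Cd69 is itself induced by activation, and the part of these genes in the ratios of Cd69 and Klf2 was not tested. Melanoma transcripts (Pmel, Mlana, Dct and Tyrp1), none of which was at 0 in any class, summed to 10.2 and 194 CPM in CD8 cells, 204 and 15.7 CPM in conventional CD4 cells, and 5.57 and 189 CPM in regulatory cells of WT and VISTA-KO. Their part was not tested either.

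The largest clonotypes weighed on the CD8 values. The largest WT clonotype held 1034 of the CD8 cells, or 18.6%, and the largest VISTA-KO clonotype 291, or 6.69%. With both left out together, the log2 ratio of S1pr1 in CD8 cells was 0.56 in place of 0.40, that of Gpr183 was 0.44 in place of 0.02, and that of Itga4 was -0.25 in place of -0.45. The ratio of Itga1 turned from -0.10 to 0.29. Klf2 was past the fold with and without them.

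To place the members in their pathways, the genes around them were read in lists. Of all genes tested, 1.08% were past the fold and higher in VISTA-KO and 0.690% lower in CD8 cells, 1.5% and 2.75% in conventional CD4 cells, and 2.83% and 2.5% in regulatory cells. Of an egress and circulation list of 14 genes, 13 were tested in CD8 cells and 1 was past the fold, Ly6c2, which marks memory and effector cells and went from 1180 to 1788 CPM. Among conventional CD4 cells 11 were tested and 2 were past the fold, both higher in VISTA-KO, namely the chemokine receptor gene Ccr7 (80.0 to 146 CPM) and the transcription factor gene Klf3 (69.3 to 121 CPM). In regulatory cells 12 were tested, of which 2 were higher, with Klf3 at 36.2 and 65.2 CPM and Ripor2 at 62.8 and 95.3 CPM. There 1 was lower, the fractalkine receptor gene Cx3cr1, at 20.1 and 7.38 CPM. The medians of this list were 0.11, 0.31 and 0.30 on the log2 scale in CD8, conventional CD4 and regulatory cells, where those over all genes tested were -0.02, -0.04 and -0.01.

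A residency list of 20 genes had medians of 0.10, 0.14 and 0.18. The same shares and medians over all genes tested apply to it. In CD8 cells 4 of 13 tested genes were past the fold and higher in VISTA-KO, among them Zfp683, which encodes the residency factor Hobit, at 12.4 and 21.4 CPM, and Nr4a1, a gene induced by receptor signaling, at 127 and 370 CPM. Conventional CD4 cells had 4 of 15 higher in VISTA-KO. These were Nr4a1 at 176 and 770 CPM, Xcl1 at 49.2 and 92.8 CPM, Bhlhe40 at 510 and 838 CPM and Zfp683 at 20.3 and 31.7 CPM. Xcl1 was also among those higher in CD8 cells, at 136 and 235 CPM. In regulatory cells 3 of 13 were higher, including Nr4a1 at 193 and 795 CPM, and 2 were lower, the chemokine receptor gene Cxcr6 at 258 and 179 CPM and the chemokine gene Xcl1 at 67.4 and 40.2 CPM. Of the other integrin genes, 0 of 5 tested passed in CD8 cells, while Itga6 was higher in both CD4 classes (17.7 to 27.7 CPM and 23.1 to 35.0 CPM) and Itgav lower in conventional CD4 cells (113 to 76.9 CPM). None of the 3 to 4 tested genes of S1P and oxysterol handling, such as Gna13 and Grk2, passed in any class.

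Egress and retention genes were next compared within single cells, to ask whether cells with one kind lacked the other. For each of the 9 pairs of an egress gene (Klf2, S1pr1, S1pr5) with a retention gene (Cd69, Itgae, Itga1), the number of cells with a UMI of both after thinning was divided by the number expected if the genes were found independently in the library. A value of 1 is independence, and pairs with under 5 expected cells in a library were not evaluated. The intervals are those of the observed count and take the expected number as fixed.

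In CD8 cells, 2 of the 7 evaluated pairs were below 1 in both libraries, and both held Itga1. Over pairs of any members, 7 of the 34 evaluated were below 1 in both libraries, so the count alone does not set egress with retention genes apart. Klf2 and Itga1 were found together in 75 WT cells where 100.8 were expected, a ratio of 0.744 (interval 0.585 to 0.933), and in 64 VISTA-KO cells where 89.9 were expected, a ratio of 0.712 (0.548 to 0.909). S1pr1 and Itga1 had ratios of 0.664 (0.405 to 1.03) and 0.699 (0.427 to 1.08), whose intervals held 1. Exclusion was therefore partial, since 4.46% of Klf2-positive WT cells had an Itga1 UMI against 6.71% of Klf2-negative cells.

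In CD8 cells, 4 of the other evaluated pairs of an egress with a retention gene had a ratio above 1 in both libraries. Over pairs of any members, 21 of 34 did. S1pr1 and Itgae were found together in 24 WT cells for 14.5 expected, a ratio of 1.65 (interval 1.06 to 2.46), and in 51 VISTA-KO cells for 24.3 expected, a ratio of 2.10 (1.56 to 2.76). Klf2 and Itgae had ratios of 1.38 (1.07 to 1.75) and 1.44 (1.19 to 1.74), and Klf2 and Cd69 of 1.13 (1.06 to 1.20) and 1.15 (1.08 to 1.22). CD8 cells with Klf2 or S1pr1 transcripts thus held Itgae more often than those without. For S1pr1 and Cd69, whose products interact, the ratios were 1.05 (0.927 to 1.19) and 1.10 (0.976 to 1.23), and for S1pr5 and Cd69 they were 0.979 (0.793 to 1.19) and 1.00 (0.716 to 1.36).

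S1pr5 stood apart from the other egress genes in its relation to Itgae. In WT, 0 CD8 cells held both where 5.69 were expected, and the upper limit of the ratio was 0.648. In VISTA-KO, 2 cells did where 3.62 were expected, which was too few to evaluate. The share of Itgae-positive cells was 0% of the 197 S1pr5-positive WT cells and 3.00% of the others.

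Over the pairs evaluated in both libraries, the ratios of egress with retention genes ranged from 0.628 to 1.11 in conventional CD4 and from 0.981 to 1.29 in regulatory cells, against 0.664 to 2.10 in CD8 cells. The lowest was Klf2 with Itgae in WT conventional CD4 cells, at 0.628 (interval 0.366 to 1.01), for which VISTA-KO had 1.06 (0.815 to 1.35), and S1pr1 with Itgae had 0.644 (0.236 to 1.40) and 1.11 (0.741 to 1.59) there. In conventional CD4 cells 2 of 7 evaluated pairs were below 1 in both libraries, Klf2 with Itga1 at 0.842 (interval 0.540 to 1.25) and 0.704 (0.484 to 0.988), and S1pr1 with Itga1 at 0.816 (0.352 to 1.61) and 0.787 (0.450 to 1.28). The members of these pairs depended on the thinning. By the expected value over all draws of the thinning, 5 of 7 pairs were below 1 in both libraries. With no thinning 1 pair, Klf2 with Itgae, was below 1. In regulatory cells 1 of 5 evaluated pairs was below 1 in both libraries, Klf2 with Itgae at 0.990 (0.774 to 1.25) and 0.981 (0.815 to 1.17), and no pair was so without thinning. Over pairs of any members, 7 of 31 in conventional CD4 and 4 of 24 in regulatory cells were below 1 in both libraries. Taken as groups, cells with S1pr1 or S1pr5 also had Cd69, Itgae or Itga1 at 1.05 and 1.09 times the expected number in CD8 cells, 1.07 and 1.00 in conventional CD4 cells, and 1.29 and 1.14 in regulatory cells of WT and VISTA-KO. In WT CD8 cells the interval was 0.946 to 1.16 and held 1. Cd69 made up most of the retention group there, in 2618 of 2822 cells.

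**Figure D3:**
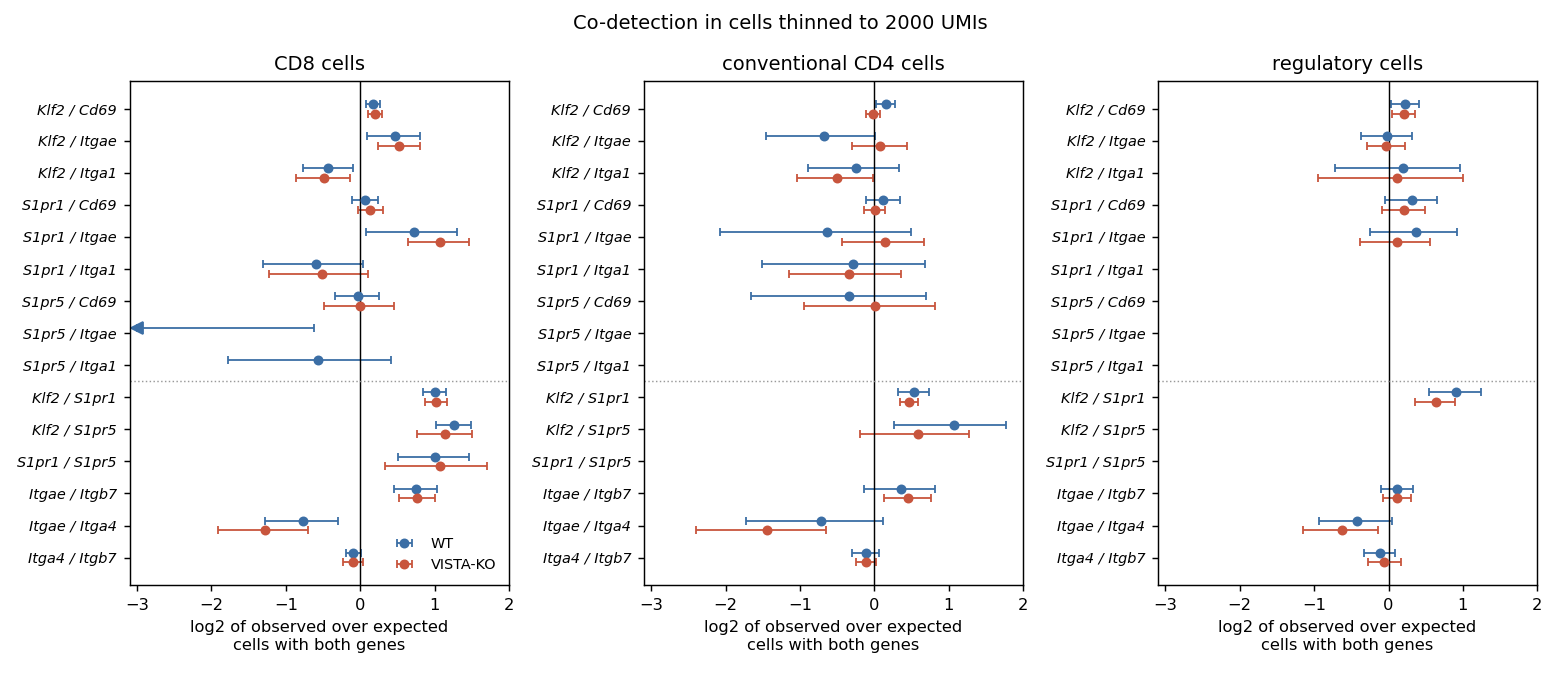
Log2 of observed over expected cells with UMIs of both genes, after thinning to 2000 UMIs, for the 9 pairs of an egress with a retention gene (above the dotted line) and for 6 other pairs (below it), in the 3 classes and both libraries. Bars are exact 95% Poisson intervals of the observed count, the arrowhead marks an observed count of 0 drawn at the left edge, and values with under 5 expected cells are left out. The evaluated pairs of egress genes and Itgae with Itgb7 lie right of 0, and Itgae with Itga4 lies left of 0 in every class. In regulatory cells Itgae with Itgb7 lies near 0.

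Egress genes were found together. Klf2 and S1pr1 were found together at 2.00 (interval 1.79 to 2.23) and 2.03 (1.84 to 2.25) times the expected number in CD8 cells of WT and VISTA-KO, 1.44 (1.24 to 1.67) and 1.38 (1.27 to 1.50) times in conventional CD4 cells, and 1.87 (1.46 to 2.37) and 1.55 (1.28 to 1.86) times in regulatory cells. Klf2 and S1pr5 had ratios of 2.40 (2.03 to 2.81) and 2.21 (1.70 to 2.83) in CD8 cells. S1pr1 and S1pr5, both S1P receptors, had ratios of 2.02 (1.43 to 2.77) and 2.10 (1.26 to 3.28) there.

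The ratio of the integrin genes Itgae and Itga4 was below 1 in all 3 classes of both libraries, though in WT the intervals of both CD4 classes held 1. The part of cells with a Cd8a or Cd8b1 UMI in the CD4-class ratios was not tested. Itgae and Itga4, the α chains that share β7, were found together in 36 WT CD8 cells for 61.1 expected and in 24 VISTA-KO CD8 cells for 58.1 expected, ratios of 0.589 (interval 0.412 to 0.815) and 0.413 (0.265 to 0.615). In conventional CD4 cells the ratios were 0.606 (0.303 to 1.08) and 0.366 (0.189 to 0.640), and in regulatory cells 0.747 (0.523 to 1.03) and 0.651 (0.451 to 0.910). Itgae followed its partner most clearly in CD8 cells, where Itgae with Itgb7 stood at 1.69 (1.37 to 2.05) and 1.71 (1.43 to 2.02). The ratios were 1.28 and 1.37 in conventional CD4 cells. In regulatory cells, where both genes were highest, they were near independence, at 1.08 and 1.09. Of Itgae-positive CD8 cells, 65.1% in WT and 68.2% in VISTA-KO had an Itgb7 UMI, against 37.8% and 38.5% of Itgae-negative cells. Itga4 and Itgb7 had ratios between 0.921 and 0.963 in all 3 classes of both libraries, with intervals that held 1.

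S1pr5 had its own partners among the positioning genes. It was found with Itga4 at 1.30 (interval 1.06 to 1.58) and 2.17 (1.59 to 2.88) times the expected number in CD8 cells of WT and VISTA-KO. It was found with Gpr183 at 0.524 (0.342 to 0.768) and 0.531 (0.255 to 0.976) times. Of S1pr5-positive CD8 cells, 13.2% and 13.3% had a Gpr183 UMI, against 25.6% and 25.3% of the others. The part of single clonotypes in these values was not tested.

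CD8 cells were then split by UMIs of state genes, in a fixed order, into 7 states, of which 6 are described here. These were dividing cells (Mki67), Cx3cr1+ cells with a gene of circulating effectors, Pdcd1+Havcr2+ cells with genes of exhaustion, Pdcd1+Tcf7+ cells with genes of progenitor exhausted cells, Il7r+ cells with a gene of memory cells, and the remaining cells. Among these 6, Klf2 was highest in Il7r+ cells, with 732 (WT) and 1067 (VISTA-KO) CPM, and lowest in Pdcd1+Havcr2+ cells, at 114 and 116 CPM. S1pr1 was also highest in Il7r+ cells, with 84.7 and 116 CPM, and was at 15.5 and 14.1 CPM in Pdcd1+Havcr2+ cells. S1pr5 was confined to no state but stood at 64.8 and 62.4 CPM in Cx3cr1+ cells and between 0.66 and 16.1 CPM in the other 5.

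Of the retention genes, Itgae was highest in Il7r+ cells, at 64.6 and 76.1 CPM, and was at 17.5 and 11.9 CPM in Pdcd1+Havcr2+ cells. Itgb7 was highest in Il7r+ cells too, at 401 and 457 CPM. Itga1 was highest in the remaining cells, at 49.1 and 36.7 CPM, and lowest in dividing cells, at 9.31 and 13.8 CPM. Gpr183 was highest in Pdcd1+Tcf7+ cells, at 250 and 275 CPM.

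For 8 of the 9 genes the highest of the 6 states was the same in both libraries, with Cd69 highest in Il7r+ cells (594 and 657 CPM). The exception was Itga4, highest in Cx3cr1+ cells of WT (394 CPM) and Pdcd1+Tcf7+ cells of VISTA-KO (279 CPM). Cells of 1 state are not replicates, and the state genes were read from the same UMIs.

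The ratio of VISTA-KO over WT varied by state. Klf2 was higher in VISTA-KO in 5 of the 6 states, by between 1.27-fold (interval 1.21 to 1.33) in the remaining cells and 2.07-fold (1.92 to 2.24) in Pdcd1+Tcf7+ cells. In Pdcd1+Havcr2+ cells its ratio was 1.02 (0.899 to 1.15), and the interval held 1. Itga4 had ratios from 0.643 in Pdcd1+Havcr2+ cells to 0.957 in Il7r+ cells, and Itgae from 0.678 in dividing cells to 3.20 in Cx3cr1+ cells. S1pr5 had a ratio of 0.964 (0.783 to 1.18) in Cx3cr1+ cells, where it was highest. In the remaining cells the S1pr5 ratio was 0.367 (0.262 to 0.505), and in the other described states its intervals held 1. The states did not make up the same shares of the libraries, with Il7r+ cells at 12.1% of WT and 16.6% of VISTA-KO CD8 cells and Pdcd1+Tcf7+ cells at 11.6% and 8.07%. With all 7 states weighted alike in both libraries, the log2 ratio of Klf2 in CD8 cells was 0.47 in place of 0.53 and no member was past the fold.

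**Figure D4:**
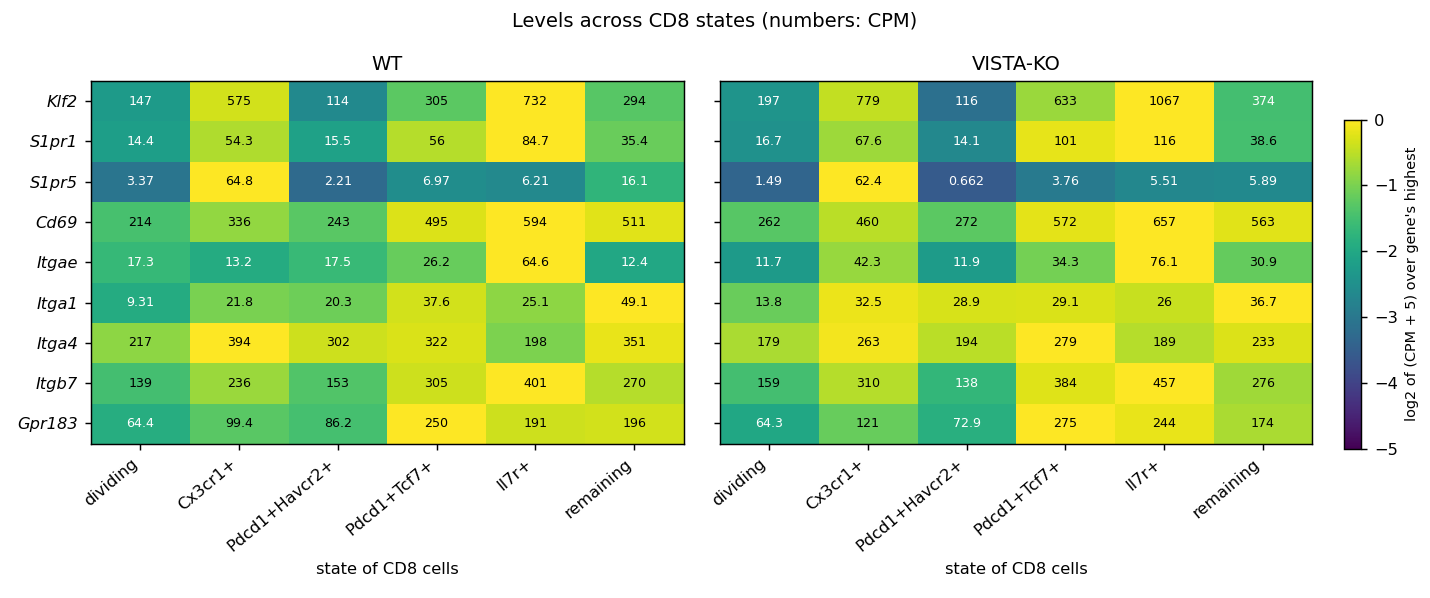
Heat maps of the 9 genes (rows) in 6 states of CD8 cells (columns), WT left and VISTA-KO right. The number in each field is the level in CPM, with no error shown, and the color is the log2 of (CPM + 5) relative to the highest of these states for that gene in that library. The brightest field lies in Il7r+ cells for Klf2, S1pr1 and Itgae and in Cx3cr1+ cells for S1pr5 in both libraries.

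Within states the pairs of egress and retention genes departed little from independence. Of 50 evaluated values in the 6 CD8 states of either library, 47 had intervals that held 1, 3 lay above 1 and 0 lay below 1. Klf2 with Itga1, below 1 over all CD8 cells, had ratios of 0.849 (interval 0.606 to 1.16) and 0.917 (0.610 to 1.33) in the remaining cells and 0.878 and 0.716 in Il7r+ cells. Klf2 with S1pr1 kept ratios above 1 in each of the 6 states that was evaluated, from 1.32 in Pdcd1+Tcf7+ cells of VISTA-KO to 2.39 in the remaining cells of VISTA-KO. Counts within states were small, and ratios of this size were often not detectable at this depth.

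Levels also differed by clone size. Among CD8 cells with both receptor chains, Klf2 stood at 900 (WT) and 1060 (VISTA-KO) CPM in cells whose clonotype was found once, 304 and 380 CPM in clonotypes of 2 to 9 cells, 213 and 242 CPM in those of 10 to 99 cells, and 190 and 92.8 CPM in those of 100 or more. Itgae was also lower in larger clonotypes, with 58.9 and 58.5 CPM in those found once, then 24.9 and 30.4, 3.26 and 3.92, and 4.77 and 1.66 CPM. Both an egress and a retention gene were thus lower in clonotypes of 10 or more cells than in smaller ones in both libraries. S1pr1 was at 96.8 and 121 CPM in single cells and at 18.9 and 25.9 CPM in clonotypes of 10 to 99.

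The largest size rested on 2 clonotypes in each library, of 1352 cells together in WT and 438 in VISTA-KO. In that size the libraries differed for Gpr183 (287 and 53.4 CPM), Itga4 (464 and 156 CPM), S1pr5 (16.4 and 0.277 CPM) and S1pr1 (44.8 and 7.20 CPM), while Itga1 was at its highest of all sizes in both (64.6 and 38.5 CPM).

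**Figure D5:**
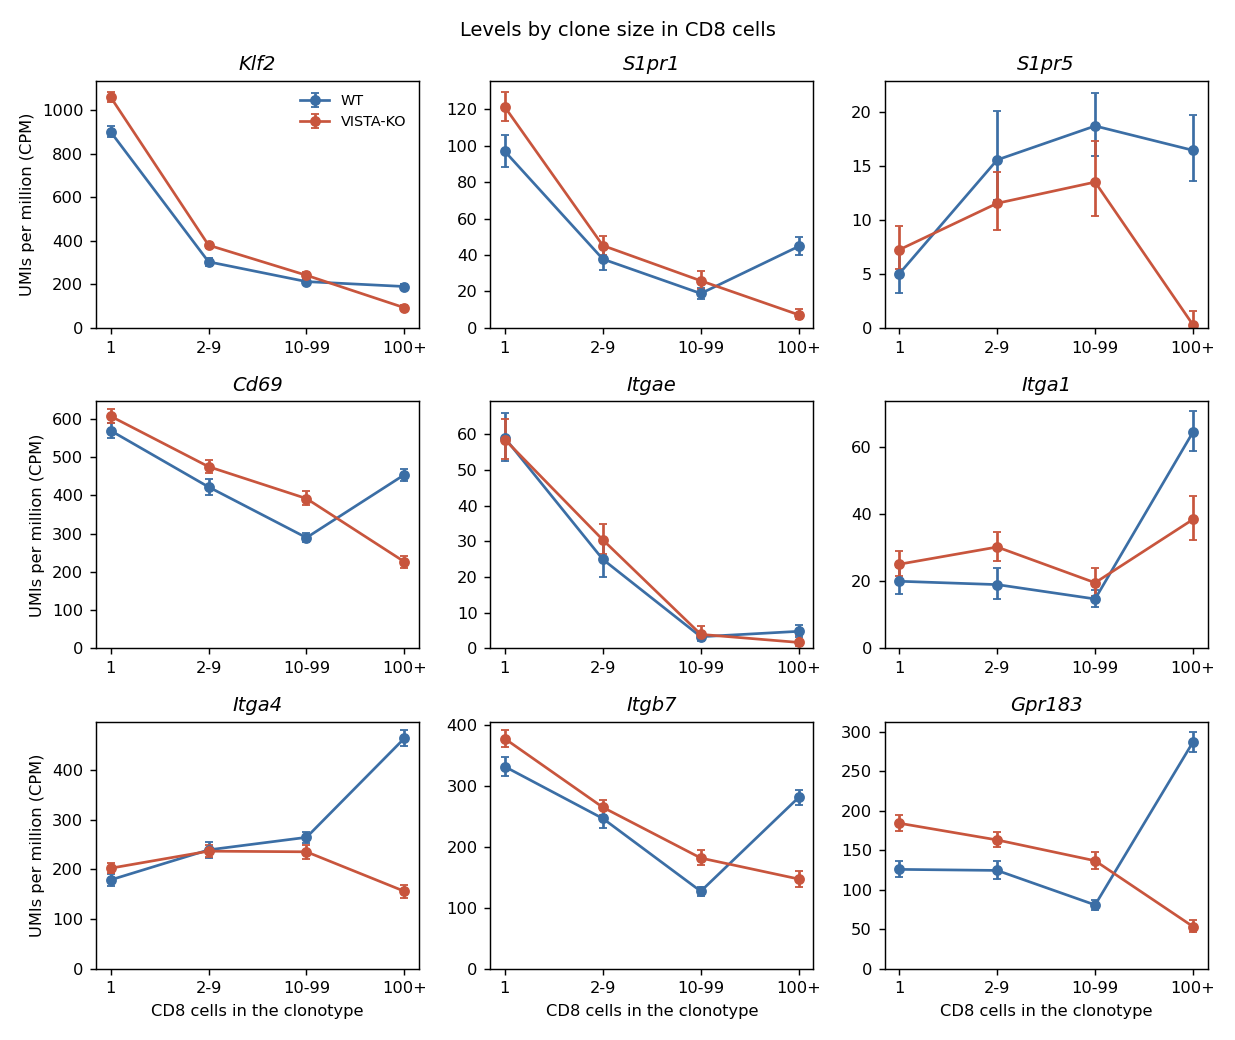
Level of each gene in CPM against the number of CD8 cells in the clonotype, in both libraries, with exact 95% Poisson intervals for counting error. The largest size holds 2 clonotypes per library. Klf2 and Itgae are highest in clonotypes found once, and Itga1 in those of 100 or more cells.

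Clonotypes of like size differed from one another. Among 15 WT clonotypes of 30 or more CD8 cells, Klf2 ranged from 63.6 to 878 CPM with a median of 226, and among 7 VISTA-KO clonotypes from 34.9 to 383 CPM with a median of 119. S1pr5 ranged from 0 to 143 CPM among the WT clonotypes and from 0 to 6.75 CPM among the others. The 4 WT clonotypes with the highest S1pr5 (88.6 to 143 CPM, 37 to 76 cells each) were the 4 with the highest Klf2 (621 to 878 CPM), and the other 11 stayed at or below 53.8 CPM of S1pr5 and 552 CPM of Klf2. The 4 clonotypes were singled out after their values were seen. They held 58.2 to 158 CPM of Itga4, below the 295 CPM of all WT CD8 cells, although S1pr5 and Itga4 were found together in CD8 cells more often than independence gives. Itgae was at 0 in 10 of the 15 WT and 4 of the 7 VISTA-KO clonotypes, and at most 17.7 CPM in any.

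The largest WT clonotype, with 1034 cells, held 525 CPM of Itga4, 366 CPM of Gpr183, 359 CPM of Itgb7, 541 CPM of Cd69 and 84.3 CPM of Itga1 beside 226 CPM of Klf2 and 4.80 CPM of Itgae. The second, with 318 cells, held 320 CPM of Itga4, 101 CPM of Gpr183, 96.3 CPM of Itgb7, 249 CPM of Cd69 and 18.3 CPM of Itga1 beside 107 CPM of Klf2. Each value is that of 1 clonotype in 1 pool of mice.

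Finally, the genes most like each member in detection were sought in the class where that member was highest in both libraries, by the phi coefficient between detections in thinned cells (0 for independence, 1 for identity), ranked by the lower value of the libraries. For Klf2 in conventional CD4 cells (1634 WT and 2890 VISTA-KO cells, 7510 genes) the first was Ccr7, at 0.21 and 0.26, then S1pr1 at 0.19 and 0.25, Igfbp4, Rasgrp2 and Zfp36. For S1pr1 the first was Klf2, followed by Igfbp4, Ripor2, Tcf7 and Il7r. For S1pr5 in CD8 cells (5259 and 4164 cells) the first was Cx3cr1 at 0.25 and 0.29, followed by the granzyme gene Gzma, Zeb2, Klrg1 and Rasgrp2. Rasgrp2 thus stood on the list of both Klf2 and S1pr5.

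Cd69 had other neighbours, the first in conventional CD4 cells being the immediate-early gene Fos at 0.12 and 0.12, then Nfkbia, Tnfaip3, Dusp1 and Zfp36. For Itgae in regulatory cells (1483 and 1219 cells) the first was Arl5a at 0.12 and 0.12, followed by Il2ra, Ctla4, Klrg1 and Icos, genes of activated regulatory cells. For Itga1 in CD8 cells the first was Cxcr6 at 0.09 and 0.09, followed by Rgs1, Lgals3, S100a6 and Ly6c2. For Itgb7 in regulatory cells the first was Psen2 at 0.09 and 0.10, followed by Cd37, Serinc3, Map4 and Arhgap45. Coefficients below about 0.1 are weak in sparse counts, and these values describe the cells of each library, which share depth and free RNA. Itga4 and Gpr183 were highest in different classes of the 2 libraries and were not ranked.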

How the data were processed

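As the authors deposited them, the values are unnormalized UMI counts for 2 gene expression libraries, WT and VISTA-KO, made with Cell Ranger 5.0.0 on the GRCm38 (mm10) genome, and UMI counts per receptor contig for the 2 matching T cell receptor libraries. The submitters' processing notes also name Seurat 4. The labels describe a 3′ kit and elsewhere a 5′ library, so the end that was read is uncertain.

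Cells with 600 or more detected genes and under 30% mitochondrial UMIs were kept. UMIs were summed per class and library and scaled to 1000000 (CPM), and ratios were taken as log2(CPM + 5) for genes of 20 CPM or more in 1 library, with exact 95% Poisson intervals. For detection, cells were thinned to 2000 UMIs with seed 1, and shallower cells were left out. Clonotypes were cells with the same alpha and beta chain. Doublets were not called, and cells with 2 or more beta chains (405 WT, 558 VISTA-KO) were left out in an alternative. The fold change and pair code was tested on simulated data. The genes the text names are the 9 members, the genes of the pathway lists, the gate, state and marker genes, Vsir and the 5 nearest genes by phi coefficient. One gene of the egress list, 1 CD8 state and 1 alternative are not reported here. The members and lists were chosen with earlier results of these data known.

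Depth was 72098984 UMIs in WT and 59916814 in VISTA-KO. UMIs of 1 pool are not replicates, and the spread between mice is unknown. Alternatives changed the total, the pseudocount, the filters, the class rules and the thinning. Python 3.11.15, numpy 2.4.6, scipy 1.17.1, pandas 2.3.3, matplotlib 3.10.9 and R 4.3.3 with edgeR 4.0.16 (TMM factors only) were used.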

Additional observations from a re-analysis of the deposited data

Results flagged for a closer look

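T cells that met none of the class rules, 1322 in WT and 1222 in VISTA-KO with a Cd3 UMI, held 578 CPM of Cd69 in WT and 676 CPM in VISTA-KO. These cells enter no comparison, and their Cd69 level was above that of every class in the same library, of which conventional CD4 cells were highest at 518 and 659 CPM. In WT but not in VISTA-KO they were also above every class for Klf2 (869 CPM), S1pr1 (101 CPM), Itgae (104 CPM) and Itgb7 (579 CPM). A Foxp3 UMI was found in 26.2% of them in WT and 25.1% in VISTA-KO.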

How the results depend on the processing

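No paired analysis was possible because each genotype had 1 library. In CD8 cells 1 member was past the fold, and the count was 2 with mitochondrial, ribosomal and receptor genes left out of the total, with TMM factors, with a pseudocount of 1, with a Cd3 UMI required, without cells with 2 beta chains and without dividing cells (Itgae added in each), with a filter at 5 CPM (S1pr5 added) and without the largest clonotype (S1pr1 added). It was 3 as a mean over cells and 3 with at least 2 UMIs of the defining genes, 4 in cells of 3000 to 8000 UMIs and 0 with states weighted alike. The 4 were Klf2 (0.57) and Itgae (0.68), higher in VISTA-KO, and S1pr5 (-0.90) and Itga4 (-0.55), lower in VISTA-KO. Of all genes tested, 1.82% passed in that depth window. In conventional CD4 cells the same 3 members passed under each alternative reported here. In regulatory cells the count of 5 became 3 as a mean over cells, 3 without dividing cells and 2 in cells of 3000 to 8000 UMIs. Smaller changes were seen as well. Itgb7 dropped out with mitochondrial, ribosomal and receptor genes left out of the total. In cells without a Cd8a or Cd8b1 UMI, Itgae and Itgb7 dropped out and Itga4 was added. Pairs below 1 in both libraries numbered 5 in place of 2 in CD8 cells with no thinning. In conventional CD4 cells they numbered 5 in place of 2 by the expected value over all draws, 1 with no thinning and 1 with at least 2 UMIs of the defining genes, and in regulatory cells 0 in place of 1 with no thinning and with at least 2 UMIs of the defining genes. Differences of 2-fold between classes numbered 6 in place of 3 with at least 2 UMIs of the defining genes and 7 without CD4-class cells with a Cd8a or Cd8b1 UMI. The share over all genes was not computed for these alternatives. The causes were not tested. The depth window, the weighting of states, the leaving out of cells with a Cd8a or Cd8b1 UMI and all alternatives of the between-class count were chosen after seeing the data. Depth limits S1pr5 and the pairs with Itgae or Itga1 within states.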
